A study of Mus musculus with 20 samples.

Results

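The 9 genes described here are 6 matrix metalloproteinases (MMPs), Mmp2, Mmp3, Mmp9, Mmp11, Mmp13 and Mmp14, and 3 tissue inhibitors of metalloproteinases (TIMPs), Timp1, Timp2 and Timp3. They were picked by a list of gene symbols, made with earlier results of these data known, out of 24347 symbols in each expression table. All 9 were listed in every table, and all 9 were among the 12938 genes that reached 1 FPKM in at least 3 libraries and were tested. FPKM divides the fragments of a gene by its transcript length and by a measure of library size, so that levels of different genes can be set side by side.

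RNA was measured in 12 libraries of stromal cells sorted from crushed, collagenase-digested femora and tibiae of C57BL/6 mice, 3 libraries in each of 4 groups. The gate CD45-CD31-Lin-PDGFRα+ was shared, and within it CAR cells (CXCL12-abundant reticular cells) were Sca1- and PaS cells Sca1+. The ko groups, CAR ko and PaS ko, were labelled Ebf1fl/fl;Prx1+/cre, and the wt groups, CAR wt and PaS wt, were labelled Ebf1+/+;Prx1+/cre. All 4 groups therefore carried a Prx1-driven Cre, which is active in limb bud mesenchyme, and the genotypes differed in the floxed alleles of Ebf1, which encodes a transcription factor known from B cells and stroma. The labels give no age, sex or pooling of animals and do not say whether replicates are separate animals, so p-values measure the spread between these libraries.

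MMPs are zinc-dependent proteases that cut collagens, proteoglycans and other proteins outside the cell. They are made as inactive proenzymes, opened by other proteases, and blocked by TIMPs, each of which binds an active site. In bone, Mmp13 is the main collagenase of osteoblast-lineage cells and hypertrophic cartilage, Mmp9 is known from osteoclasts and neutrophils, and Mmp14 sits on the cell membrane, where together with Timp2 it activates proMMP-2.

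The targeted gene did not separate the genotypes in the direction of its labels. Ebf1 had 56.0, 56.7 and 59.8 FPKM in CAR ko libraries, against 48.9, 48.5 and 46.8 FPKM in CAR wt libraries. In PaS cells it had 65.0, 61.9 and 60.7 FPKM in ko libraries, against 55.0, 62.1 and 50.5 FPKM in wt libraries. Reads of exons that the floxed alleles leave in place would enter these values, which therefore cannot check the genotype, and ko and wt below mean libraries labelled so. The marker lists followed the sort: 11 of 11 CAR cell markers were higher and 11 of 12 PaS and fibroblast markers were lower in CAR wt than in PaS wt. In the same comparison 20.5% of all tested genes were higher and 22.7% lower, by limma at an adjusted p under 0.05. Ly6a, which encodes Sca1, had 4.03 to 5.58 FPKM in CAR wt and 1740 to 2176 FPKM in PaS wt libraries. Fewer genes were at 0 in PaS wt replicate 1 (24.6%) than in any other library (33.3% to 37.0%).

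Mmp3 and Mmp13 lie in a cluster of 10 MMP genes that spans 427 kb of chromosome 9, with 162 kb between the end of Mmp13 and the start of Mmp3 (RefSeq, GRCm38.p6). Of the 4 genes called higher in ko in both cell types, Mmp3, Mmp13, Timp1 and Timp3, the promoters of these neighbouring MMP genes are shown, which had the largest changes of the 4; no motif searched for was found in those of Timp1 and Timp3. Each line gives 250 bases before and 50 bases from the RefSeq start, plus strand, at chr9:7445572-7445871 for Mmp3 and chr9:7272264-7272563 for Mmp13. Capitals mark matches to TGANTCA, the core of AP-1 sites, and to TGTGGT, the core of RUNX sites, on either strand.
Mmp3: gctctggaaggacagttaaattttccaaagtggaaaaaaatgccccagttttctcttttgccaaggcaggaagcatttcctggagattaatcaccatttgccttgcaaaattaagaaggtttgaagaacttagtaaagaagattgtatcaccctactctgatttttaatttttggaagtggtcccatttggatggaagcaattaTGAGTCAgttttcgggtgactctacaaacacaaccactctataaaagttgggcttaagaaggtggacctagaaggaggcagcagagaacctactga
Mmp13: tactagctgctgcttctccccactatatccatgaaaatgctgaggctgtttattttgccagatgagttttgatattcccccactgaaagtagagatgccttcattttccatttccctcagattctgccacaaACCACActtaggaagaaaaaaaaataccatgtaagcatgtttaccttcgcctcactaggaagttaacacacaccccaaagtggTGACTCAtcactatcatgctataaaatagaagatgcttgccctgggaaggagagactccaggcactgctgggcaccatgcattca
The AP-1 letters stood at -46 to -40 in Mmp3 and at -35 to -29 in Mmp13, counted from the RefSeq start, and the RUNX letters, on the minus strand, at -118 to -113 in Mmp13. RefSeq promoters were at hand for 7 of the 9 genes, all but Mmp2 and Mmp9. Of these 7, Mmp3 and Mmp13 held the AP-1 letters, which 7.81% of all 32851 promoters of this length hold, and Mmp13 and Mmp14 the RUNX letters, which 16.8% hold. TATAAA was found in Mmp3 at -7 to -2, in Mmp13 at -16 to -11, and in 13.6% of all promoters. The RefSeq starts were not checked against these libraries, so all these distances hold for the annotated starts only. The EBF palindrome, TCCC and GGGA with any 2 bases between them, was found in Mmp14, as TCCCCTGGGA at -183 to -174, and in 0.904% of all promoters. The windows do not cover more distant elements, and no motif was tied to a measurement.

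Mmp13, collagenase-3 (chr9:7272514-7283333), was the most abundant MMP in CAR cells and rose in ko libraries of both cell types. It had 2065, 2023 and 2167 FPKM in CAR ko libraries, against 1348, 1203 and 1331 FPKM in CAR wt libraries. Among PaS cells, ko libraries had 526, 491 and 502 FPKM, against 266, 281 and 279 FPKM in wt libraries. The libraries of the 4 groups did not overlap, and the order from low to high was PaS wt, PaS ko, CAR wt and CAR ko. In CAR cells Mmp13 changed by 0.69 (log2) with SE 0.06 and adjusted p = 1.1e-06, and in PaS cells by 0.88 with SE 0.06 and adjusted p = 8e-08, by limma on log2(FPKM + 1). Mean FPKM in ko libraries was 1.61 times that in wt libraries in CAR cells and 1.84 times in PaS cells. The difference between these effects, -0.19 (95% interval -0.36 to -0.02), did not pass the test over all genes (adjusted p = 0.20).

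Mmp3, stromelysin-1 (chr9:7445822-7455975), which cuts proteoglycans and opens other proMMPs, changed by more than any other of the 9 genes in either cell type. It had 63.3, 62.0 and 58.0 FPKM in CAR ko libraries, against 31.8, 21.9 and 25.6 FPKM in CAR wt libraries. In PaS cells the ko libraries had 215, 212 and 199 FPKM, against 75.6, 75.6 and 87.9 FPKM in the wt libraries. Every ko library was above every wt library of its cell type, and the 4 groups did not overlap. The log2 fold change was 1.20 in CAR cells (SE 0.11, adjusted p = 2e-06), the 36th largest of 842 called increases, and 1.38 in PaS cells (SE 0.11, adjusted p = 5.3e-07), the 23rd largest of 441. A gene was called at an adjusted p under 0.05 over all tested genes. The effects in CAR and PaS cells differed by -0.19 (95% interval -0.50 to 0.13, adjusted p = 0.54).

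Mmp11, stromelysin-3 (chr10:75923221-75932502), can be activated inside the cell by furin-type convertases. It had the lowest mean of the 9 genes in CAR ko, PaS ko and PaS wt. In CAR wt its mean of 26.5 FPKM was close to the 26.4 FPKM of Mmp3. CAR ko libraries had 18.5, 19.8 and 17.5 FPKM, against 23.9, 32.1 and 23.6 FPKM in CAR wt libraries. In PaS ko the libraries had 17.2, 18.0 and 17.0 FPKM, against 21.1, 19.2 and 19.3 FPKM in PaS wt libraries. Neither pair of groups overlapped, but the fall was called only in CAR cells (log2 fold change -0.48, SE 0.11, adjusted p = 0.0088), and CAR wt replicate 2 was well above the other CAR libraries. Without that library the fall was -0.34 (adjusted p = 0.036), and over the 22 alternatives run the adjusted p in CAR cells was 0.0068 to 0.046. The PaS value of Mmp11 was -0.18 on the log2 scale (adjusted p = 0.41), and the difference between cell types, -0.30, was not called (95% interval -0.62 to 0.03, adjusted p = 0.31).

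Mmp2, gelatinase A (chr8:92827290-92853421), which degrades denatured and basement membrane collagen, rose in CAR cells and was not called in PaS cells. It had 284, 313 and 308 FPKM in CAR ko libraries, against 175, 186 and 187 FPKM in CAR wt libraries. The PaS ko values were 903, 912 and 901 FPKM, against 866, 885 and 905 FPKM in PaS wt libraries. Only the CAR groups were separate, and all CAR libraries were below all PaS libraries. The log2 fold change was 0.72 in CAR cells (SE 0.05, adjusted p = 3.1e-07) and 0.03 in PaS cells (95% interval -0.08 to 0.14, adjusted p = 0.81). The difference between the effects, 0.69, was called (SE 0.07, adjusted p = 4.7e-05).

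Mmp9, gelatinase B (chr2:164940326-164955850), fell in ko libraries of both cell types. CAR ko libraries had 20.0, 20.4 and 20.2 FPKM, against 26.8, 41.1 and 32.0 FPKM in CAR wt libraries. Mmp9 in PaS ko libraries was at 24.9, 31.1 and 29.6 FPKM, against 43.6, 50.1 and 47.8 FPKM in PaS wt libraries. Each ko group was below its wt group without overlap, while PaS ko and CAR wt overlapped. The log2 fold change was -0.67 in CAR cells (SE 0.12, adjusted p = 0.0021) and -0.71 in PaS cells (SE 0.12, adjusted p = 0.0017), and the difference between them was 0.04 (95% interval -0.34 to 0.41, adjusted p = 0.94).

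Neutrophil transcripts fell in ko in both cell types, as Mmp9 did but by other amounts, although CD45+ and Lin+ cells were gated out. Of 14 neutrophil marker genes 13 were in the tables, all 13 were tested, and 12 were lower in ko in CAR cells and 12 in PaS cells. Among all tested genes 5.74% were called lower in CAR ko and 4.03% in PaS ko. The median log2 fold change of the 13 markers was -1.19 in CAR and -1.76 in PaS cells. Their genotype effect was called higher in CAR than in PaS cells for 7 and lower for 4. Among all tested genes these shares were 3.32% and 3.26%. The summed level of the 13 markers was 4705 to 5321 FPKM in CAR ko libraries and 10429 to 12027 FPKM in CAR wt libraries. In PaS cells it was 6996 to 7170 FPKM in ko libraries and 22516 to 25236 FPKM in wt libraries. None of the 13 was at 0 in all libraries of any group. S100a9 had 1283 to 1442 FPKM in CAR ko and 2773 to 3115 FPKM in CAR wt libraries, and together with S100a8 it made most of these sums. The 13 monocyte and macrophage markers in the tables summed to 226 to 244 FPKM in CAR ko and 468 to 584 FPKM in CAR wt libraries, with 8 lower and 0 higher. In PaS cells they summed to 894 to 994 FPKM in ko and 1261 to 1346 FPKM in wt libraries, with 5 higher and 4 lower. Most of the PaS wt sum was Lyz2, at 1005 to 1041 FPKM, against 419 to 441 FPKM in PaS ko. C1qa went the other way, with means of 87.7 FPKM in PaS ko and 36.3 FPKM in PaS wt. The median log2 fold change of the 13 in PaS cells was 0.31.

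Of 10 osteoclast markers 4 were tested, with 1 higher and 1 lower in CAR ko and 2 higher and 1 lower in PaS ko. Calls in either direction covered 12.3% of all tested genes in CAR cells and 7.44% in PaS cells. Acp5, the osteoclast acid phosphatase, fell in CAR cells (log2 fold change -0.46, adjusted p = 0.0054) and rose in PaS cells (0.64, adjusted p = 5.4e-04). Siglec15 was at 0 in all libraries of CAR ko, CAR wt and PaS ko, Calcr in CAR wt and PaS ko, and Dcstamp in PaS ko and PaS wt. Other markers of the list were present. Atp6v0d2 had 3.69 to 6.10 FPKM in PaS ko and 4.06 to 7.84 FPKM in PaS wt libraries. In CAR cells it had 0.591 to 1.23 FPKM in ko and 1.49 to 2.03 FPKM in wt libraries. Tnfrsf11a had 0.430 to 1.35 FPKM in PaS ko and 0.168 to 0.479 FPKM in PaS wt libraries. The sum of the 10 was 226 to 228 FPKM in CAR ko and 199 to 221 FPKM in CAR wt libraries, and 519 to 549 FPKM in PaS ko and 372 to 411 FPKM in PaS wt libraries, most of it from Ctsk, cathepsin K, which stromal cells also express. The part of neutrophils and macrophages in the fall of Mmp9 was not tested, and in these bulk samples fewer cells of a type and less RNA per cell cannot be told apart.

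**Figure D1:**
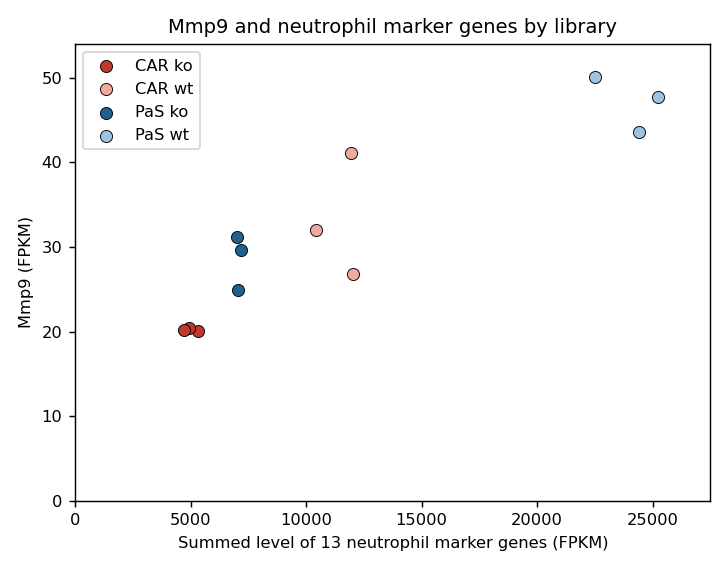
Mmp9 (vertical axis, FPKM) against the summed level of 13 neutrophil marker genes (horizontal axis, FPKM), with 1 point per library, coloured by group. CAR ko libraries lie lowest on both axes, at 20.0 to 20.4 FPKM of Mmp9, and PaS wt libraries highest, at 43.6 to 50.1 FPKM.

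Mmp14, the membrane-anchored MT1-MMP (chr14:54431598-54442456), was not called between genotypes. It had 221, 210.1 and 211 FPKM in CAR ko libraries, against 203, 202 and 218 FPKM in CAR wt libraries, which overlapped. PaS ko libraries had 257, 254 and 247 FPKM, against 232, 238 and 239 FPKM in PaS wt libraries, without overlap. The log2 fold changes of 0.05 in CAR cells (95% interval -0.06 to 0.16, adjusted p = 0.65) and 0.09 in PaS cells (95% interval -0.02 to 0.21, adjusted p = 0.36) were not called, and both intervals lie below the change of Mmp2 in CAR cells.

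The 3 inhibitors rose in CAR ko libraries, and Timp1 and Timp3 also in PaS ko libraries. Timp1 (chrX:20870166-20874737) is an inducible inhibitor with low affinity for membrane-type MMPs. It had 225, 264 and 281 FPKM in CAR ko libraries, against 183, 166 and 197 FPKM in CAR wt libraries. PaS ko libraries had 139, 153 and 133 FPKM, against 110.1, 95.1 and 125 FPKM in PaS wt libraries. Neither pair overlapped. The log2 fold change was 0.49 in CAR cells (SE 0.10, adjusted p = 0.0045) and 0.37 in PaS cells (SE 0.10, adjusted p = 0.036). The call in PaS cells was lost without PaS ko replicate 1, 2 or 3 (adjusted p = 0.078, 0.15 and 0.052), without PaS wt replicate 1 or 2 (adjusted p = 0.088 and 0.17) and without CAR wt replicate 1 (adjusted p = 0.051), and it held in the other 6 of 12 such fits (adjusted p = 0.014 to 0.046).

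Timp2 (chr11:118301061-118355411), which binds both Mmp14 and proMMP-2, had 346, 349.5 and 314 FPKM in CAR ko libraries, against 247, 272 and 254 FPKM in CAR wt libraries. PaS ko libraries had 1107, 1118 and 1125 FPKM, against 1133, 1137 and 1104 FPKM in PaS wt libraries. The CAR groups were separate and the PaS groups overlapped. The log2 fold change was 0.38 in CAR cells (SE 0.06, adjusted p = 2.6e-04) and -0.01 in PaS cells (95% interval -0.13 to 0.11, adjusted p = 0.96), and the difference, 0.39, was called (SE 0.08, adjusted p = 0.0064). Under quantile normalization, which gives every library the same distribution, the PaS value was 0.26 (adjusted p = 0.035) and the difference 0.10 (adjusted p = 0.63), so the difference for Timp2 depends on the scaling, which that of Mmp2 did not.

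Timp3 (chr10:86300412-86349505), the TIMP that stays bound to the matrix and also inhibits ADAM proteases, had 60.1, 60.1 and 57.8 FPKM in CAR ko libraries, against 48.1, 51.7 and 52.6 FPKM in CAR wt libraries. In PaS cells it had 268, 271 and 272 FPKM in ko libraries, against 224, 228 and 224 FPKM in wt libraries. The groups did not overlap in either cell type, and the ko means were 1.17 times the wt means in CAR cells (a change of 0.22, SE 0.06, adjusted p = 0.016) and 1.20 times in PaS cells (0.26, SE 0.06, adjusted p = 0.0065). The call in CAR cells was lost with only the CAR groups fitted (adjusted p = 0.060), without CAR ko replicate 2 (adjusted p = 0.058) and without CAR wt replicate 1 (adjusted p = 0.074). Timp1 lies inside the synapsin gene Syn1 and Timp3 inside Syn3 in RefSeq, and the labels do not say that counting used strand. Syn1 had 0.321 to 1.40 FPKM and Syn3 0.0422 to 0.592 FPKM over the 12 libraries, far below the inhibitors.

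**Figure D2:**
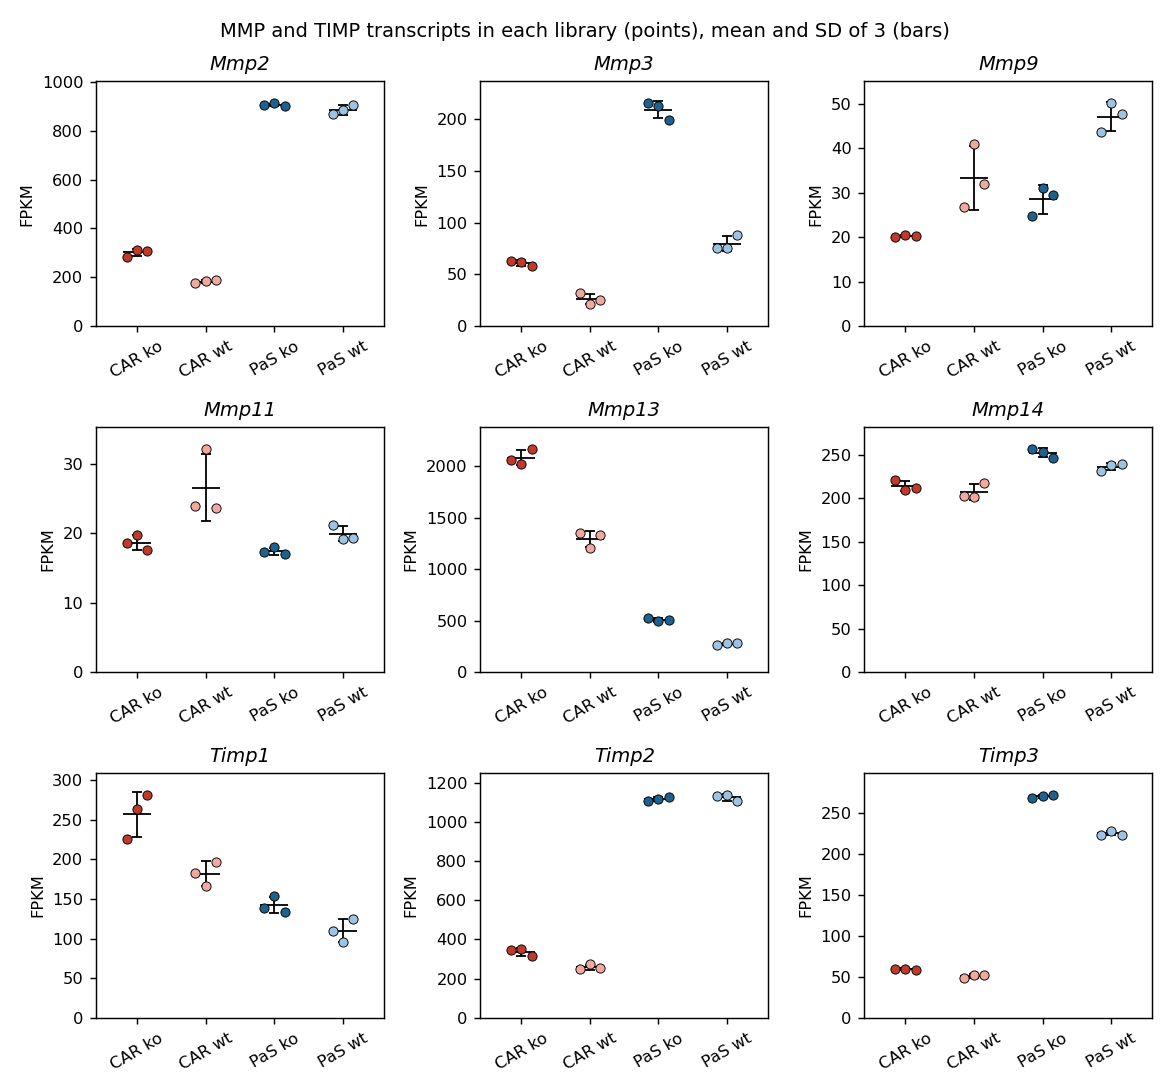
FPKM of each of the 9 genes (vertical axes, from 0) in the 3 libraries of CAR ko, CAR wt, PaS ko and PaS wt (horizontal axes); points are libraries, and bars are the mean and SD of 3. Mmp13 and Timp1 are highest in CAR ko, Mmp3 and Timp3 in PaS ko, and Mmp2 and Timp2 are at like levels in both PaS groups, at 866 to 912 and 1104 to 1137 FPKM.

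Over the CAR libraries the test called 8 of the 9 genes, 6 higher and 2 lower in ko, where 12.3% of all tested genes were called (6.51% higher and 5.74% lower). In PaS cells 5 of 9 were called, 4 higher and 1 lower, against 7.44% of all tested genes (3.41% higher and 4.03% lower). Called in the same direction in both cell types were Mmp3, Mmp13, Timp1 and Timp3, all higher, and Mmp9, lower. Over all tested genes 1.08% were called higher in both and 1.36% lower in both. The median log2 fold change of the 9 genes was 0.38 in CAR cells and 0.09 in PaS cells, against 0.01 and 0.00 over all tested genes. Groups did not overlap for 8 of 9 genes in CAR cells and 7 of 9 in PaS cells, against 29.9% and 23.4% of tested genes. For 2 of 9 genes, Mmp2 and Timp2, the genotype effect differed between cell types, both with the larger value in CAR cells, against 6.58% of tested genes (3.32% with the higher and 3.26% with the lower value in CAR cells).

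**Figure D3:**
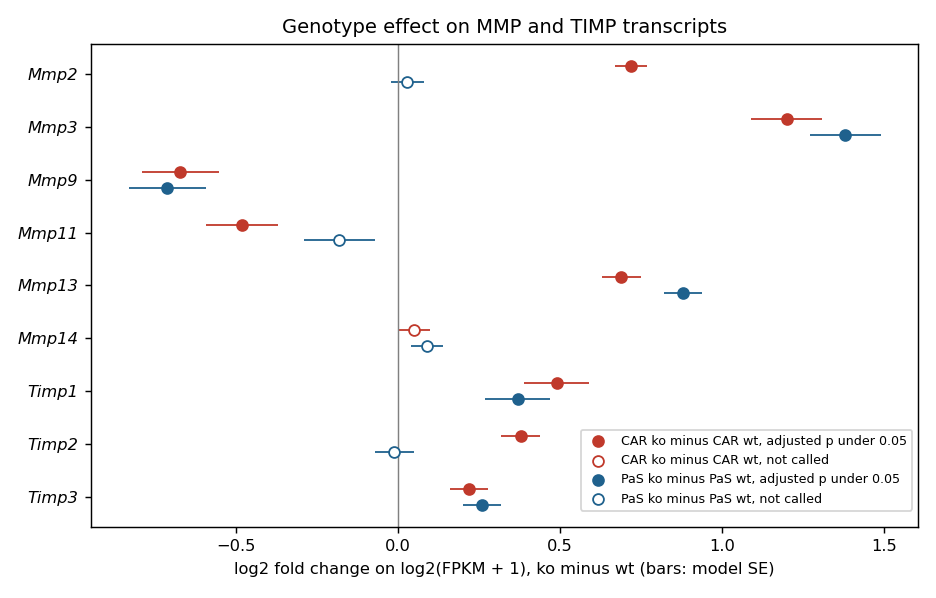
Log2 fold change (horizontal axis, ko minus wt on log2(FPKM + 1)) of each gene in CAR cells (red) and PaS cells (blue), with model SE as bars; filled points had an adjusted p under 0.05. Mmp3 and Mmp13 lie right of 0 and Mmp9 left of 0 in both cell types, while Mmp2 and Timp2 lie right of 0 in CAR cells and near 0 in PaS cells.

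The summed level of the 6 MMPs was higher in ko libraries of both cell types. It was 2672, 2648 and 2782 FPKM in CAR ko libraries, against 1808, 1686 and 1817 FPKM in CAR wt libraries. PaS ko libraries summed to 1943, 1918 and 1895 FPKM, against 1504, 1549 and 1579 FPKM in PaS wt libraries. The 3 TIMPs summed to 632 to 674 FPKM in CAR ko and 478 to 503 FPKM in CAR wt libraries, and to 1514 to 1543 FPKM in PaS ko and 1452 to 1466 FPKM in PaS wt libraries. These sums of transcripts are descriptions with no test, since the 9 genes are not all of either family and transcript levels are not protease activity.

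The ratio of the MMP sum to the TIMP sum separated the cell types more than the genotypes. It was 4.14 ± 0.18 in CAR ko and 3.61 ± 0.17 in CAR wt libraries, and 1.25 ± 0.024 in PaS ko and 1.06 ± 0.031 in PaS wt libraries (SD, n = 3 each). The composition of the sums also differed. Mmp13 made 76.4% to 77.9% of the MMP sum in CAR ko and 71.4% to 74.5% in CAR wt libraries, but 25.6% to 27.1% in PaS ko and 17.7% to 18.1% in PaS wt libraries. In PaS cells Mmp2 was the largest MMP, at 46.5% to 47.5% of the sum in ko and 57.1% to 57.6% in wt libraries. Timp2 made 48.1% to 54.8% of the TIMP sum in CAR ko and 50.4% to 55.6% in CAR wt libraries, and 72.5% to 73.5% in PaS ko and 76.0% to 77.9% in PaS wt libraries.

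**Figure D4:**
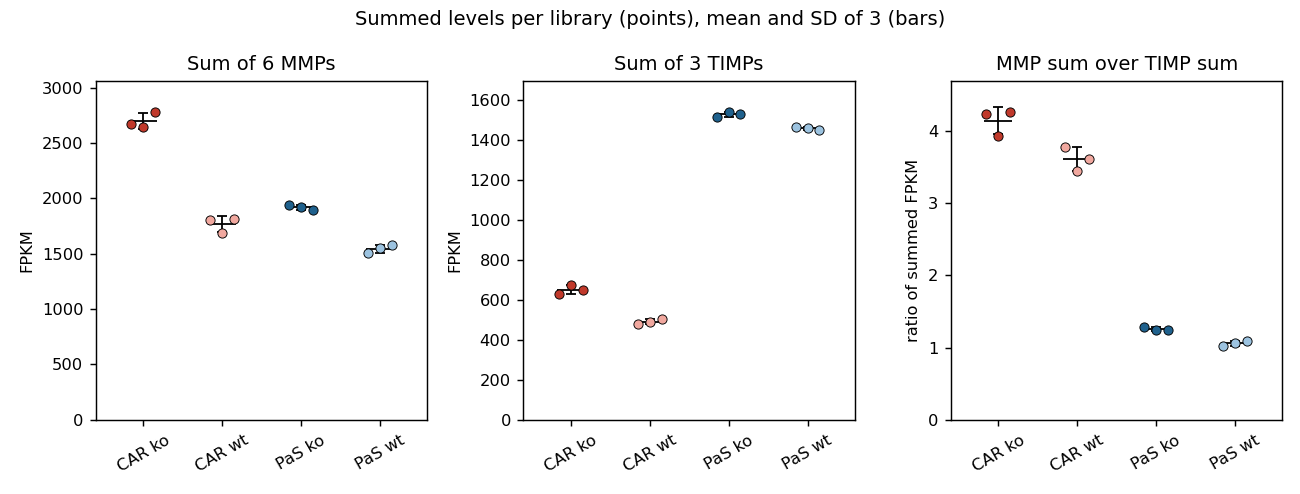
Summed FPKM of the 6 MMPs, summed FPKM of the 3 TIMPs and the ratio of these sums (vertical axes, from 0) in each library by group; points are libraries, and bars are the mean and SD of 3. The MMP sum is highest in CAR ko, at 2648 to 2782 FPKM, the TIMP sum is above 1450 FPKM in both PaS groups, and the ratio is above 3.4 in CAR and below 1.3 in PaS libraries.

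Between the wild-type cell types, all 9 genes were called, 3 higher and 6 lower in CAR wt, where 43.2% of all tested genes were called (20.5% higher and 22.7% lower), so that a call by itself says little here. The groups did not overlap for any of the 9, against 51.2% of tested genes that did not overlap. The sizes were large for 4 genes. Mmp13 was 4.70 times as high in CAR wt as in PaS wt by mean FPKM (log2 fold change 2.23, SE 0.06, adjusted p = 4.7e-14), a change larger in size than that of 97.7% of tested genes. Mmp2 had 0.207 times (log2 fold change -2.27), Timp2 0.229 times (-2.12) and Timp3 0.226 times (-2.13) the PaS wt mean, each with an SE of 0.05 or 0.06 and adjusted p-values of 1.6e-14 to 6.1e-14. Mmp3 was also lower in CAR wt (log2 fold change -1.57, adjusted p = 5.6e-09), and Timp1 was higher (0.73, adjusted p = 2.8e-05). Mmp9 at -0.51, Mmp11 at 0.39 and Mmp14 at -0.19 were smaller in size than most calls in the same direction. The call of Mmp14 was lost under quantile normalization (log2 fold change -0.12, adjusted p = 0.11).

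Between the ko cell types 8 of 9 genes were called, 2 higher (Mmp13 at 2.04 and Timp1 at 0.85) and 6 lower in CAR ko, against 36.9% of all tested genes (17% higher and 19.8% lower). Groups did not overlap for 8 of the 9, against 47.9% of tested genes. Mmp11, the exception, had a log2 fold change of 0.09 (95% interval -0.14 to 0.32, adjusted p = 0.57). The gap of Mmp2 was smaller in ko, at -1.58, than in wt, at -2.27, and that of Timp2 was -1.73 in ko and -2.12 in wt; these are the differences already tested above, since the comparisons share libraries.

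By the smallest distance between centred group means of log2(FPKM + 1), Mmp2 and Timp2 were closest to each other among the 9 genes, at 0.24 log2 units over the 4 groups, followed by Timp2 and Timp3 at 0.32. Among 12260 other named genes, the nearest to Mmp2 were Pkia and Ntn4, each at 0.08, and Serpinb8 at 0.12. Nearest to Timp2 were Osbp2 at 0.07, Fam49a at 0.08 and Oaf at 0.10, and nearest to Timp3 were F2r at 0.04, Cpxm2 and Gpihbp1, each at 0.13. Mmp13 was nearest to Hba-a2 at 0.24, then to Panx3 at 0.25 and Dapk2 at 0.26. The match to Hba-a2, a globin gene whose reads can be shared with Hba-a1, rests on single libraries, since Hba-a2 had 227, 0.00875 and 0.00929 FPKM in the PaS ko libraries. Panx3, a pannexin of osteoblasts and hypertrophic chondrocytes, had means of 15.0 FPKM in CAR ko and 7.78 FPKM in CAR wt, and of 2.05 FPKM in PaS ko and 0.848 FPKM in PaS wt. Mmp3 had no close match: Tspan2 stood at 0.39 and Dio2 and Edil3 at 0.57. The genes nearest to Mmp9 were Inpp5d and Sorl1, each at 0.10, and Vill at 0.13, and Inpp5d encodes a phosphatase of blood cells. For Mmp11 they were Fyb, Fbxl12 and Kcnd1, each at 0.06, for Mmp14 Pi4k2a, Mrpl4 and Zfp113, each at 0.02, and for Timp1 Prcp at 0.08, Pde7b at 0.11 and Ncam1 at 0.13. Genes with small changes, such as Mmp14, find near matches easily, and these distances are descriptions.

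Of 17 other MMP genes all were in the tables and 8 were tested. In ko CAR cells 1 rose and 1 fell, and in ko PaS cells 1 rose and 2 fell. For this list and those below, the shares of all tested genes called were 6.51% higher and 5.74% lower in CAR ko. The shares in PaS ko were 3.41% higher and 4.03% lower. Mmp16, a membrane-type MMP, was the one that rose, with 17.8, 15.8 and 17.1 FPKM in CAR ko libraries, against 9.22, 9.33 and 7.78 FPKM in CAR wt libraries (log2 fold change 0.88, SE 0.14, adjusted p = 5.2e-04). Among PaS cells it had 6.71, 6.97 and 4.92 FPKM in ko libraries, against 3.31, 3.10 and 2.60 FPKM in wt libraries (0.84, SE 0.14, adjusted p = 9.3e-04). Its ko libraries were above its wt libraries in both cell types.

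Mmp8, the neutrophil collagenase, lies in the chromosome 9 cluster with Mmp3 and Mmp13 but fell, and the neutrophil marker sum given above fell with it. It had 15.3, 14.2 and 12.3 FPKM in CAR ko libraries, against 22.6, 20.3 and 22.9 FPKM in CAR wt libraries (log2 fold change -0.62, adjusted p = 3.5e-04). PaS ko libraries had 18.0, 17.5 and 17.1 FPKM, against 50.9, 54.5 and 58.4 FPKM in PaS wt libraries (-1.58, adjusted p = 3.1e-08), and the effects differed by 0.96 (adjusted p = 3.5e-04). Mmp25, a leukocyte MMP, was the other that fell in PaS cells, at -0.88 (adjusted p = 0.0086). Of the rest of the cluster, Mmp27 reached 2.13 FPKM, Mmp10 0.329, Mmp12 0.108, Mmp20 0.027 and Mmp1a 0.0219 FPKM in their highest libraries, and Mmp1b and Mmp7 were listed at 0 in all 12. Thus 3 of the 10 cluster genes, Mmp3, Mmp8 and Mmp13, were above 10 FPKM in every library.

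Of 3 further inhibitors, A2m, the broad protease trap alpha-2-macroglobulin, rose in CAR cells, with 85.6, 100.1 and 90.8 FPKM in ko libraries, against 57.8, 66.2 and 60.0 FPKM in wt libraries (log2 fold change 0.58, adjusted p = 0.0090). Reck, a membrane-anchored inhibitor, changed by 0.26 on the log2 scale (adjusted p = 0.067) and Timp4 by -0.57 (adjusted p = 0.12) in CAR cells. In PaS cells the adjusted p-values of the 3, from limma, were 0.26 to 0.86.

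Among 14 genes of the proenzyme activation cascade 11 were tested, and 5 rose and 1 fell in CAR ko, while 0 rose and 4 fell in PaS ko. Pcsk6, a proprotein convertase, moved in opposite directions, to 39.6 ± 0.39 FPKM in CAR ko against 19.4 ± 1.21 FPKM in CAR wt (adjusted p = 3e-07), and to 54.2 ± 4.38 FPKM in PaS ko against 135 ± 2.31 FPKM in PaS wt (adjusted p = 1.6e-08; SD, n = 3 each). Fap, a fibroblast serine protease, rose in CAR cells (0.76, adjusted p = 2.6e-06) and had 0.03 in PaS cells. Plaur, the urokinase receptor, which leukocytes also carry, fell in both, by 0.83 and 0.81 on the log2 scale. Plau, urokinase, fell in PaS cells, to 0.816 ± 0.30 FPKM in ko against 3.69 ± 0.39 FPKM in wt libraries (SD, n = 3 each), and was under 0.2 FPKM in all CAR libraries. Plg, plasminogen, was listed at 0 in all 12 libraries.

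Of 23 ADAM and ADAMTS proteases 20 were tested, with 3 higher and 1 lower in CAR ko and 0 higher and 3 lower in PaS ko. Since 12.3% of all tested genes were called in CAR cells and 7.44% in PaS cells, these counts by themselves say little. The aggrecanase Adamts5 rose in CAR cells (0.35, adjusted p = 0.026) and fell in PaS cells (-0.34, adjusted p = 0.041), and these effects differed by 0.69 (adjusted p = 0.0056). Adam8, which myeloid cells express, fell in both, at -0.67 (adjusted p = 0.020) and -1.39 (adjusted p = 9e-05). The medians of the list, -0.00 and 0.01, were those of all tested genes within 0.01.

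Among 23 known inducers of MMP genes, all tested, 3 rose and 3 fell in CAR ko, and 0 rose and 8 fell in PaS ko. Il1b, interleukin-1 beta, fell to 20.2 ± 1.60 FPKM in CAR ko against 36.7 ± 5.21 FPKM in CAR wt (adjusted p = 2e-04), and to 21.1 ± 3.50 FPKM in PaS ko against 58.8 ± 0.88 FPKM in PaS wt (adjusted p = 7.9e-07; SD, n = 3 each). Osm, oncostatin M, also fell in both, at -0.96 and -1.76, and both cytokines are made by myeloid cells, whose marker sums are given above. Il6 rose in CAR cells (0.24, adjusted p = 0.034) and fell in PaS cells (-0.46, adjusted p = 4.9e-04). Fosb, an AP-1 subunit, fell in CAR cells (-0.33, adjusted p = 0.012), while Fos, a more abundant subunit, rose there (0.18, adjusted p = 0.031). In PaS cells Fosb had -0.14 (adjusted p = 0.37) and Fos -0.07 (adjusted p = 0.53). Fosl1, another AP-1 subunit, fell in PaS cells (-1.14, adjusted p = 0.0016) and had 0.10 in CAR cells (adjusted p = 0.83). Runx2, a regulator of Mmp13 in bone, had 0.12 in CAR and -0.02 in PaS cells (adjusted p = 0.56 and 0.97). The relation of these cytokines and AP-1 subunits to the MMP levels was not tested.

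Of 12 partners and uptake receptors, all tested, 3 rose and 0 fell in CAR ko, and 1 rose and 3 fell in PaS ko. Mrc2, the collagen uptake receptor Endo180, had 38.0 ± 1.07 FPKM in CAR ko and 28.5 ± 1.09 FPKM in CAR wt libraries (log2 fold change 0.41, adjusted p = 0.0014) and -0.01 in PaS cells, with a difference of 0.42 (adjusted p = 0.022). Cav1, caveolin-1, rose in CAR cells (0.99, adjusted p = 3e-06) and fell in PaS cells (-0.32, adjusted p = 0.046). Ddr2, a collagen receptor that can induce Mmp13, fell in PaS cells (-0.42, adjusted p = 0.0029).

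Of 25 MMP substrates 24 were tested, with 8 higher and 5 lower in CAR ko and 9 higher and 5 lower in PaS ko. Spp1, osteopontin, and the proteoglycan Lum rose in both cell types, Spp1 by 0.70 and 0.89 and Lum by 0.77 and 0.54 on the log2 scale. Nid1, a basement membrane linker, fell in both, at -0.29 and -0.76. Col1a1 counts among the 5 lower in CAR ko although it is listed at 0 in 2 of those libraries beside 4677 FPKM in the other, and Col1a2 is listed at 0 in 1. None of the 9 MMP and TIMP genes had such a 0, and their lowest value in any library was 17.0 FPKM.

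Among the markers of skeletal cell types, the osteoblast list was mostly higher in ko in both cell types. Between the wt cell types 11 of its 12 genes were higher in CAR wt, against 20.5% of all tested genes. Mmp13 was also higher there, but Mmp3 was lower (log2 fold change -1.57). Of 12 osteoblast markers, all tested, 10 rose and 1, Col1a1, was lower in CAR ko, and 8 rose and 0 fell in PaS ko. Their sum was 41310 to 44922 FPKM in CAR ko and 28294 to 30156 FPKM in CAR wt libraries, and 5949 to 6442 FPKM in PaS ko and 4157 to 4468 FPKM in PaS wt libraries. Alpl, alkaline phosphatase, had 683 ± 41.1 FPKM in CAR ko and 349 ± 28.9 FPKM in CAR wt libraries (SD, n = 3 each). Of 9 tested chondrocyte markers 2 rose and 5 fell in CAR ko and 8 rose and 0 fell in PaS ko, with sums of 385 to 466 FPKM in CAR ko and 533 to 628 FPKM in CAR wt, and of 108 to 126 FPKM in PaS ko and 50.9 to 54.8 FPKM in PaS wt libraries. Of 8 joint-surface and synovial markers 8 rose and 0 fell in CAR ko, with sums of 3031 to 3135 FPKM in CAR ko and 1840 to 1951 FPKM in CAR wt libraries. In PaS ko 4 rose and 3 fell, with sums of 3908 to 4268 FPKM in PaS ko and 4288 to 4550 FPKM in PaS wt libraries. Col10a1, the collagen that defines hypertrophic cartilage, was at or under 2.76 FPKM in all libraries, and Ihh at or under 0.161 FPKM. The part of these cell types in the rises of Mmp13 and Mmp3 was not tested.

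Other marker lists, with counts for ko against wt, were as follows in CAR and then PaS cells. The share of all tested genes called was 12.3% in CAR cells and 7.44% in PaS cells, so counts near these say little. B-lymphoid markers had 0 higher and 6 lower of 7, then 1 higher and 0 lower. Erythroid and megakaryocyte markers had 0 higher and 9 lower of 13, then 3 higher and 2 lower. Mast cell and basophil markers had 3 higher and 0 lower of 5, then 0 higher and 4 lower, and endothelial markers 2 higher and 0 lower of 10, then 0 higher and 1 lower. CAR cell markers had 0 higher and 5 lower of 11, then 1 higher and 1 lower, and PaS and fibroblast markers 4 higher and 2 lower of 12, then 0 higher and 5 lower.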

How the data were processed

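The deposited values are FPKM, 1 table of 24347 gene symbols per library; the submitters' processing notes name TopHat2 2.0.14, Cufflinks 2.2.1, Cuffnorm 2.2.1 and Cuffdiff on mm10, and the labels' protocols name SMART-Seq v4 libraries from oligo dT-enriched RNA. Gene annotation, strand and filters are not given in the sources used here. Read depth is not given. Steps of single reads, within 0.03 of a whole number in 580 of 4712 low genes, gave relative depths of 0.888 to 1.12, and replicates differed by a chi-square per degree of freedom of 3.03 to 6.21, so they are separate libraries. Summed FPKM ran from 491801 to 526074. Over genes above 0 in every library, the median ratio to the geometric mean of the libraries was 1.01 in each library. Values were therefore already on a common scale, and the median-ratio scaling among the alternatives below could change little.

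A gene entered the test if 3 or more libraries held it at 1 FPKM or above. limma 3.58.1 in R 4.3.3 was run on log2(FPKM + 1) (a 4-group model, eBayes with a trend, two-sided, 8 residual and 6.95 prior degrees of freedom), with Benjamini-Hochberg adjustment over 12938 genes. Fold changes on this scale understate those of low genes. Alternatives were other pseudocounts, filters and scalings, library weights, fitting only the groups compared, a replicate block, each library left out, and zeros beside 100 FPKM or more in the same group set to missing. The 9 genes and all gene lists were chosen with earlier results of these data known. Named genes were the 9, up to 3 called members of a list with the smallest p, Ebf1, Syn1, Syn3 and the 3 genes nearest to each of the 9; other list members were chosen after their values were seen. Lists are described by counts, with no test. Promoters and gene positions are from RefSeq, GRCm38.p6. ATAC-seq samples were not analysed here. Python 3.11.15, pandas 2.3.3 and matplotlib 3.10.9 were used.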

Additional observations from a re-analysis of the deposited data

Results flagged for a closer look

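For 2 of the 9 genes the genotype effect differed between CAR and PaS cells by the interaction term of the limma fit, in which 6.58% of all tested genes were called. Mmp2 rose in CAR ko and was not called in PaS ko, a difference of 0.69 (log2, adjusted p = 4.7e-05). Timp2 did the same with a difference of 0.39 (log2, adjusted p = 0.0064). In both genes the 3 CAR ko libraries were above the 3 CAR wt libraries, while PaS libraries overlapped.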

How the results depend on the processing

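Each of 45 results (9 genes in 5 contrasts) was run under 21 or 22 alternatives, of which median-ratio scaling could change little. Under all of these alternatives 39 results kept their direction and their side of the threshold. The exceptions were Timp1 in PaS cells, Timp3 in CAR cells, Mmp14 between the wt cell types and Timp2 in PaS cells and in the difference, with values in the report, and the difference of Mmp9, which was not called and changed sign. Timp1 in PaS cells also lost its call without a filter (adjusted p = 0.12) and with library weights (adjusted p = 0.063). Timp2 in PaS cells changed sign to 0.26 under quantile normalization, and the count of genes with a called difference was then 1; the cause was not tested. The difference of Mmp9 was -0.10, -0.06 and -0.01 without CAR wt replicate 1, PaS ko replicate 1 and PaS wt replicate 2, and over all left-out libraries it ran from -0.103 to 0.195. With 1 library left out, 7 to 8 of the 9 genes were called in CAR cells, 4 to 5 in PaS cells, 2 for the difference, 9 between wt and 8 between ko cell types; over all genes the counts were 1129 to 1695, 748 to 988, 643 to 771, 5017 to 5636 and 4166 to 4914. Deviations from the group means had correlations of -0.041 to 0.18 between same-numbered libraries and -0.13 to 0.093 between libraries of different number. With 3 libraries per group these values cannot settle whether the numbers pair libraries. With a replicate block the genes called were 8, 5, 2, 9 and 8, as without it, and 1585 over all genes in CAR cells. Single-read steps, found in 580 of 4712 low genes, gave relative depths only, and without read counts no counting interval was computed.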
